A study of Mus musculus with 4 samples.

Results

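Microglia and macrophage genes of the mouse retina were compared between *rd7* and wild-type mice. The group holds 39 genes, taken by name as genes of resting and activated microglia and macrophages, and all 39 were found among the 22095 loci with an expression value. RNA was sequenced from 4 libraries at 3 weeks of age, 2 from Nr2e3 mutant (*rd7*) and 2 from wild-type mice, and both genotypes are labelled as strain C57BL/6J. The 8 retinas of a library came from 2 male and 2 female mice, and what varies within a genotype is therefore the difference between pools of animals. *Nr2e3* encodes a transcription factor of rod photoreceptors, and the mutation is carried in the germ line and thus by microglia as well as by neurons. Expression is given as FPKM, in which fragments are counted per length of transcript and per mapped fragment of the library. Errors written after ± are standard errors of the fit (SE).

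Microglia are the resident macrophages of the retina, where their processes survey the synaptic layers. They depend on the CSF1 receptor for survival, sense nucleotides and chemokines released by neurons, and carry immune receptors that signal through the adaptors TYROBP and FcRγ. In retinas with photoreceptor damage, microglia can move to the outer layers, engulf cell debris and express more lysosomal and inflammatory genes.

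The labels were checked on *Nr2e3*, whose transcript is stated in the study's design to be more abundant in this mutant. It was expressed at 2493 and 1589 FPKM in *rd7* and at 385 and 394 FPKM in wild-type retinas. Of the retinal marker genes, *Glul* of Müller cells was at 904 to 1011 and *Pax6* of inner neurons at 70.9 to 90.9 in the 4 libraries. The lowest FPKM values place the depth at 3.49e+07 to 3.55e+07 reads per library, an estimate that runs low because it uses annotated transcript lengths. Genotypes were compared on log2(FPKM + 0.1) with limma and Benjamini-Hochberg adjustment at an FDR of 5%, in the 12655 genes whose FPKM averaged 1 or more. The median log2 fold change of these genes was 0.15, and it was -0.0049 when each library was scaled by its median ratio.

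Of the 39 genes, 6 rose in *rd7* retinas and none fell, among 14 that were expressed highly enough to be tested. The 6 genes were the purine receptor *P2ry12*, the growth factor receptor *Csf1r*, the cathepsins *Ctss*, *Ctsb* and *Ctsd*, and *Mpeg1*, which encodes a pore-forming protein of macrophages. Their log2 fold changes lay between 0.41 and 0.91. Since 37.6% of all genes tested were called higher and 8.8% lower, the 42.9% of microglia and macrophage genes called higher were close to the background. *P2ry12*, *Trem2* and *Mpeg1* had a wild-type mean under 1 and reached the filter through their *rd7* values. The median log2 fold change was 0.41 in the 14 genes. Scaled by median ratio, 5 of the 14 were called higher beside 19.7% of all genes, and without a filter 5 of the 39 beside 10.3%. Without wild-type replicate 1, 2 of the 14 were called higher, beside 10.2% of all genes. Without *rd7* replicate 1, 12 of the 14 were called higher, beside 41.0%, and without *rd7* replicate 2, 6 were called higher and 2 lower, beside 43.3% and 11.6%.

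Because 25 of the 39 genes had a mean FPKM under 1, the comparison was repeated with a mean of at least 0.1, a limit chosen after the values were seen. It admitted 32 of the 39 genes, of which 11 were called higher and none lower, or 34.4% beside 29.8% of all genes higher and 7.14% lower. The added calls were *P2ry13*, *Fcrls*, *Itgam*, *Itgb2* and *Lyz2*. When these libraries were also scaled by median ratio, 7 genes (21.9%) were called higher, beside 15.4% of all genes. Both *rd7* values lay above both wild-type values in 27 of the 32 genes (84.4%), against 52.6% of all genes, and both lay below in none, against 19.2%. Among the 27, *Tlr2* had a wild-type mean of 0.0808 and reached the limit through its *rd7* values. A different number of cells of a type and a different amount of RNA per cell cannot be told apart in RNA of whole retinas.

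**Figure D1:**
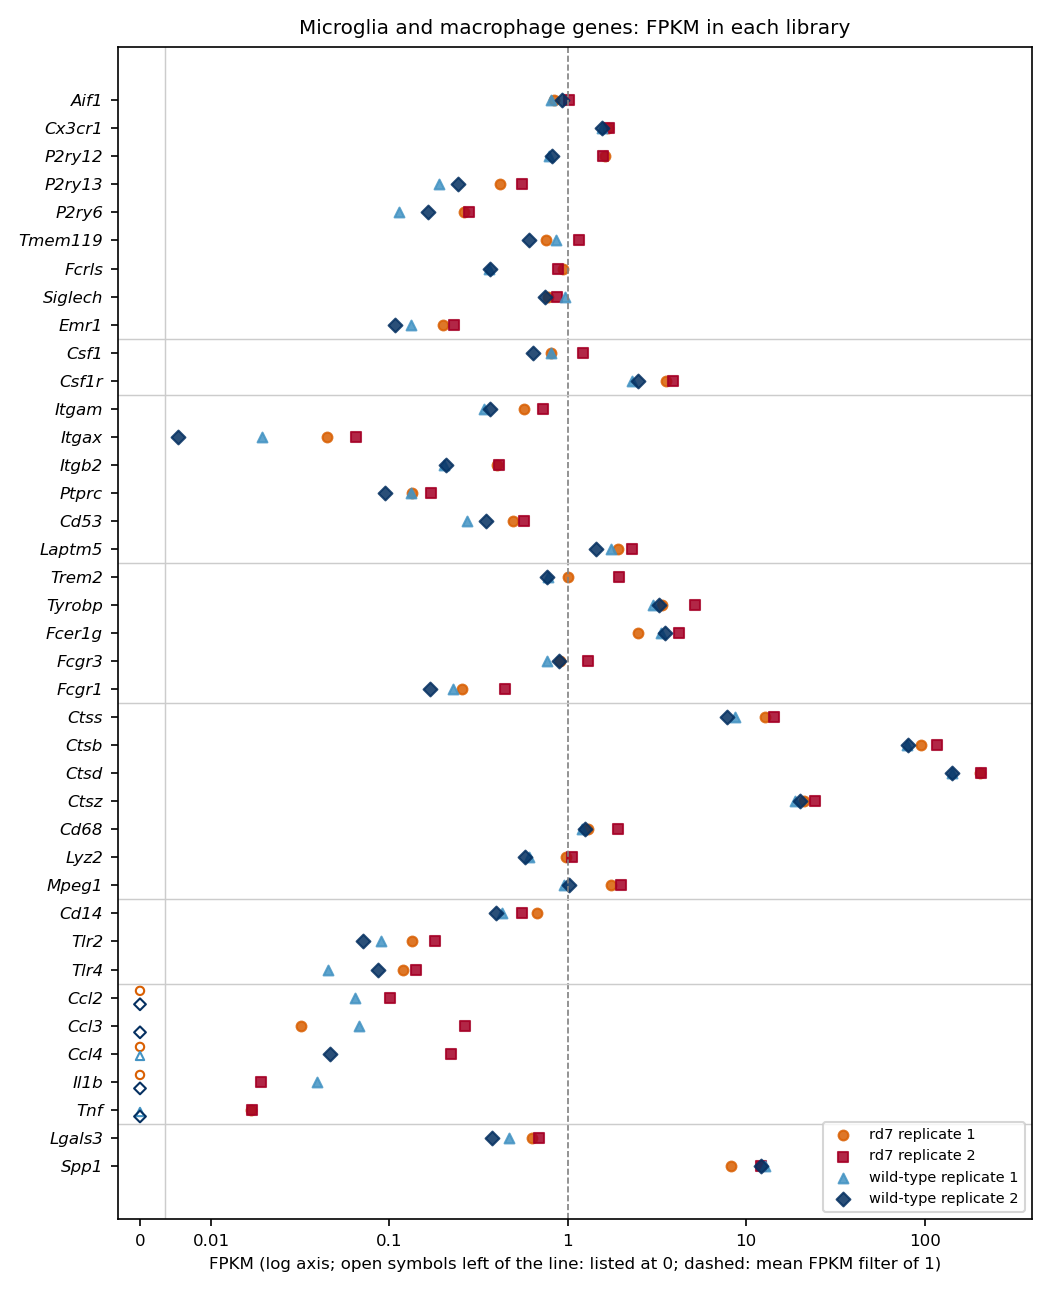
FPKM of the 39 microglia and macrophage genes in each of the 4 libraries, on a logarithmic axis with the genes grouped by role. The cathepsins *Ctsd* and *Ctsb* lie highest, 25 genes have a mean FPKM under 1, and each of the 5 cytokine genes is listed at 0 in at least 1 library.

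**Figure D2:**
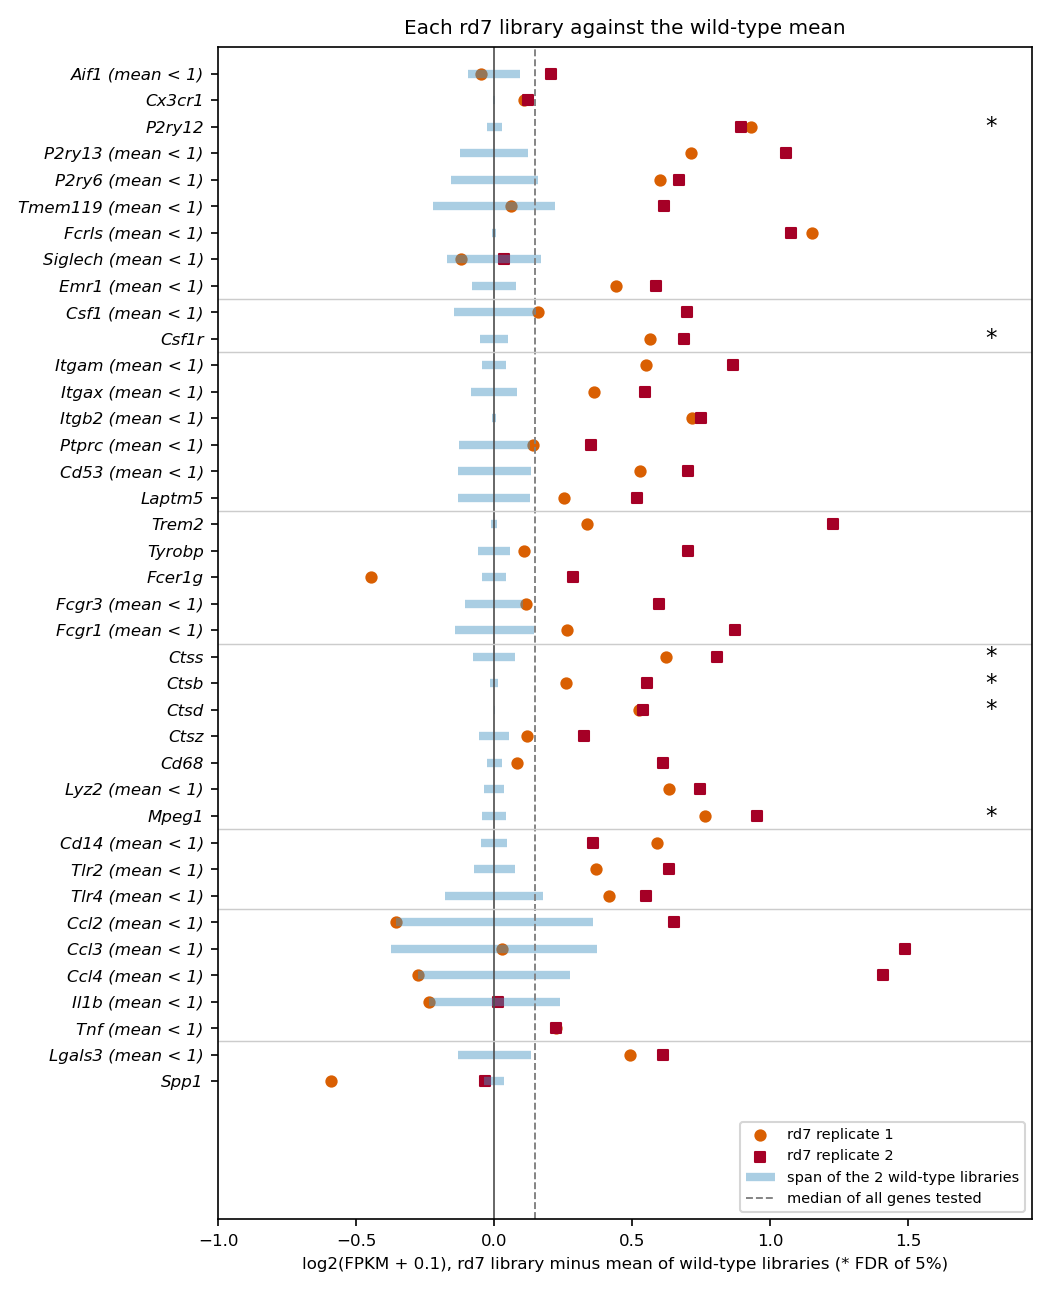
Log2 difference of each *rd7* library from the wild-type mean for each of the 39 genes, on the log2(FPKM + 0.1) scale. In 36 of the 39 genes *rd7* replicate 2 lies above *rd7* replicate 1, and the widest gaps among the 14 tested genes are in *Trem2*, *Fcer1g* and *Tyrobp*.

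Promoters are shown for 4 genes of different roles, 3 whose groups were well apart (*Ctss*, *Fcrls* and *Itgam*) and 1 that was high mainly in a single *rd7* library (*Trem2*). PU.1, the transcription factor that specifies macrophages and microglia, binds purine-rich sites with a GGAA core, and the letters GAGGAA were searched on both strands. Each sequence runs 5′ to 3′ on the strand of its gene, from 250 bases before to 50 after the start annotated by RefSeq (GRCm38.p6), and capitals mark GAGGAA or its reverse complement. By exact match in mm9, they lie at chr3:95330458-95330757 on the plus strand (*Ctss*), chr3:87067397-87067696 on the minus strand (*Fcrls*), chr7:135205904-135206203 on the plus strand (*Itgam*) and chr17:48485476-48485775 on the plus strand (*Trem2*).
Ctss: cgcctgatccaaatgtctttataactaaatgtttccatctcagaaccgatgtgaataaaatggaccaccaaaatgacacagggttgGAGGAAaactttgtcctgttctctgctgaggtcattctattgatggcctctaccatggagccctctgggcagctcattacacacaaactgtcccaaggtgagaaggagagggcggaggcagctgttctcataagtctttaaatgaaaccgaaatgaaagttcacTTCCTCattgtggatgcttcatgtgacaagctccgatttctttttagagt
Fcrls: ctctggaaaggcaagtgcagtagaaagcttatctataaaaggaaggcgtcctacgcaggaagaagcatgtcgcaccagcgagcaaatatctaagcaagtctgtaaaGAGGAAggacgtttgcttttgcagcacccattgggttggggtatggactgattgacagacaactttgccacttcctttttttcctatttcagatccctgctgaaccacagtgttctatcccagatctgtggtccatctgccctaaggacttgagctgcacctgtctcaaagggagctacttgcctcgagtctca
Itgam: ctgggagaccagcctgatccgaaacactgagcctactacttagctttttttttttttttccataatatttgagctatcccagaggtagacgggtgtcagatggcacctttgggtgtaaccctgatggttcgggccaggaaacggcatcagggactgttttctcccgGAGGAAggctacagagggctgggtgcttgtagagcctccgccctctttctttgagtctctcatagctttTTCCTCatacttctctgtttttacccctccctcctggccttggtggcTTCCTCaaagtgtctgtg
Trem2: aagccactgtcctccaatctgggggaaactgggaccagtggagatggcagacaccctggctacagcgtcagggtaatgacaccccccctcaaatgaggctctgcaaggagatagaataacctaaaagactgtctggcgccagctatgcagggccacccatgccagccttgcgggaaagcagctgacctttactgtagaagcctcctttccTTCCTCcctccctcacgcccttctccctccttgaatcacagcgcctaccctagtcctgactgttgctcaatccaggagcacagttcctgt
The promoter of *Itgam* holds the letters 3 times, that of *Ctss* 2 times, and those of *Fcrls* and *Trem2* once each.
Of the 39 genes, 28 had a promoter in the RefSeq table, and GAGGAA was found in 16 of them (57.1%), compared with 31.3% of 27025 genes. The longer GAGGAAGT, which contains GAGGAA, was found in 3 (10.7%; *Cd53*, *Ctss* and *Spp1*) compared with 3.69% of all genes. The letters were present in genes with separated groups such as *Fcrls* and in genes whose groups overlapped such as *Aif1*, and they were not found in these windows of *P2ry12*, *Ctsd* and *Mpeg1*, which rose. A match is a description of the sequence and does not show that a factor binds there.

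The first role comprises 9 markers and sensing receptors of microglia, of which 2 were tested and 1 rose. *P2ry12*, the ADP receptor that directs microglial processes, lies at chr3:59020193-59066753 and was expressed at 1.61 and 1.57 FPKM in *rd7* and at 0.780 and 0.813 FPKM in wild-type retinas. The pools of each genotype were nearly equal and the genotypes well apart. The log2 fold change was 0.91 ± 0.15 (SE, adjusted p = 0.00649 from limma), and without wild-type replicate 1 the call was lost (adjusted p = 0.051 from limma). The log2 fold change was 0.58 after correcting for GC content and length and 0.53 with a pseudocount of 1. *P2ry12* and *P2ry13* lie within *Med12l*, which is on the opposite strand, and the protocol names no step that keeps the strand. *Med12l* had an FPKM of 4.54 and 3.63 in *rd7* and 2.99 and 2.91 in wild-type retinas, and its part in the values of these receptors was not tested.

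*Cx3cr1*, the receptor of the neuronal chemokine fractalkine, had an FPKM of 1.68 and 1.70 in *rd7* and 1.56 and 1.55 in wild-type retinas. Its groups did not overlap, but the log2 fold change of 0.12 ± 0.12 (SE, adjusted p = 0.468 from limma) was below the median of all genes and became -0.03 with median-ratio scaling. The other 7 genes of this role were below a mean of 1. *Fcrls*, an Fc receptor-like gene of mouse microglia at chr3:87054887-87067446, was at 0.934 and 0.879 in *rd7* and 0.363 and 0.367 in wild-type retinas, with the promoter shown above. The ratio of its means was 2.49, and with the lower limit its log2 fold change had an adjusted p = 0.00618 from limma.

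*P2ry13*, another ADP receptor, was at 0.416 and 0.555 in *rd7* and 0.189 and 0.243 in wild-type retinas (adjusted p = 0.0339 from limma with the lower limit, and 0.0576 when libraries were also scaled by median ratio). *P2ry6*, a UDP receptor that promotes phagocytosis, was at 0.261 and 0.278 in *rd7* and 0.113 and 0.165 in wild-type retinas. *Emr1*, which encodes the macrophage antigen F4/80, was at 0.199 and 0.231 in *rd7* and 0.133 and 0.108 in wild-type retinas. The groups of all these receptors were separate, but *P2ry6* and *Emr1* were not called with the lower limit (adjusted p = 0.0991 and 0.163 from limma). Groups overlapped for the remaining markers. *Aif1*, which encodes the microglial marker IBA1, was at 0.833 and 1.01 in *rd7* and 0.803 and 0.928 in wild-type retinas. *Tmem119*, a marker of resident microglia, was at 0.757 and 1.16 in *rd7* and 0.859 and 0.605 in wild-type retinas. *Siglech*, a sialic acid-binding receptor, was at 0.773 and 0.873 in *rd7* and 0.968 and 0.744 in wild-type retinas. Markers of the same cell type therefore gave ratios of *rd7* to wild-type means from 0.962 for *Siglech* to 2.49 for *Fcrls*.

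In the CSF1 axis, the receptor rose and the ligand was not called. *Csf1r*, at chr18:61265226-61290793, encodes the receptor kinase on which microglia depend, and its FPKM was 3.57 and 3.90 in *rd7* and 2.29 and 2.47 in wild-type retinas. Both *rd7* pools were above both wild-type pools by more than the pools of a genotype differed. The log2 fold change was 0.63 ± 0.10 (SE, adjusted p = 0.00513 from limma), and the call was lost without wild-type replicate 1 or without a filter (adjusted p = 0.065 and 0.0518 from limma). *Csf1*, a ligand of this receptor, was at 0.810 and 1.22 in *rd7* and 0.802 and 0.637 in wild-type retinas, where the lower *rd7* value lay next to the higher wild-type value (adjusted p = 0.203 from limma with the lower limit). *Il34*, the other ligand, is no member of the group and was at 4.85 to 5.36 in the 4 libraries (adjusted p = 0.395 from limma).

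Leukocyte surface genes and integrins were low, and all 6 had the 2 *rd7* pools above the 2 wild-type pools. Among all genes that average 0.1 FPKM or more, as 5 of the 6 do, this share was 52.6%. *Itgam*, which encodes the CD11b chain of complement receptor 3, was at 0.565 and 0.727 in *rd7* and 0.340 and 0.368 in wild-type retinas. *Itgb2*, which encodes the β chain that pairs with it, was at 0.402 and 0.413 in *rd7* and 0.203 and 0.207 in wild-type retinas. Both chains of this receptor were thus higher in each *rd7* pool, with log2 fold changes of 0.71 and 0.73 and an adjusted p of 0.0397 and 0.0383 from limma with the lower limit. Neither was called when the libraries were also scaled by median ratio (adjusted p = 0.0777 and 0.0678 from limma).

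*Cd53*, a tetraspanin of leukocytes, was at 0.491 and 0.566 in *rd7* and 0.274 and 0.349 in wild-type retinas. *Ptprc*, which encodes the common leukocyte antigen CD45, was at 0.135 and 0.171 in *rd7* and 0.133 and 0.0946 in wild-type retinas. Its lower *rd7* value and higher wild-type value were almost equal, and neither *Cd53* nor *Ptprc* was called with the lower limit (adjusted p = 0.0646 and 0.514 from limma). *Laptm5*, a lysosomal membrane protein of blood cells, was the only gene of this role to be tested and was at 1.90 and 2.30 in *rd7* and 1.74 and 1.43 in wild-type retinas. It was not called, with a log2 fold change of 0.39 ± 0.16 (SE, adjusted p = 0.0939 from limma). *Itgax*, which encodes CD11c, was at 0.0448 and 0.0649 in *rd7* and 0.0194 and 0.00653 in wild-type retinas, and both wild-type values were under the 0.0210 that 3 reads would give.

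The activating receptors and their adaptors comprised 5 genes, of which 3 were tested and none was called at an FDR of 5% by limma. In each of the 5, *rd7* replicate 2 was the highest of the 4 libraries, as it was in 33.0% of all genes. *Trem2*, a lipid-sensing receptor of microglia at chr17:48485726-48491598, was at 0.999 and 1.94 in *rd7* and 0.777 and 0.766 in wild-type retinas. *Tyrobp*, the adaptor through which TREM2 signals, was at 3.39 and 5.17 in *rd7* and 3.01 and 3.27 in wild-type retinas. *Fcer1g*, which encodes the FcRγ chain, was at 2.48 and 4.19 in *rd7* and 3.32 and 3.53 in wild-type retinas. The *rd7* pools thus differed from each other by 1.94-fold, 1.53-fold and 1.69-fold, while the wild-type pools were close together. The log2 fold changes were 0.78 ± 0.31 for *Trem2* (SE, adjusted p = 0.0861 from limma), 0.41 ± 0.19 for *Tyrobp* (adjusted p = 0.138) and -0.08 ± 0.23 for *Fcer1g* (adjusted p = 0.794).

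These results depended on a single pool. Without *rd7* replicate 1, *Trem2*, *Tyrobp* and *Fcer1g* were all called higher, with log2 fold changes of 1.23, 0.70 and 0.29 (adjusted p = 0.00103, 0.000862 and 0.0386 from limma). Without *rd7* replicate 2, neither *Trem2* nor *Tyrobp* was called, and *Fcer1g* was called lower with a log2 fold change of -0.45 (adjusted p = 0.0077 from limma). In both fits the lone *rd7* library is assumed to vary as the wild-type libraries do. *Fcgr3*, a low-affinity IgG receptor, was at 0.904 and 1.304 in *rd7* and 0.762 and 0.898 in wild-type retinas. *Fcgr1*, the high-affinity IgG receptor, was at 0.256 and 0.442 in *rd7* and 0.227 and 0.168 in wild-type retinas. In both, *rd7* replicate 2 was the highest library and *rd7* replicate 1 was the next, close to the higher wild-type value.

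Lysosomal and phagocytic genes were the most abundant role and held 4 of the 6 calls among 6 genes tested, beside 37.6% of all genes called higher. All 7 genes had the 2 *rd7* pools above the 2 wild-type pools, beside 52.6% of all genes. *Ctsd*, a lysosomal aspartic protease that many cell types of the retina also express, was at 205 and 208 in *rd7* and 143 in both wild-type libraries. The pools of each genotype were nearly identical, with a log2 fold change of 0.53 ± 0.04 (SE, adjusted p = 0.00107 from limma). It was called under every one of the 16 alternatives (adjusted p between 4.15e-05 and 0.0305 from limma). *Ctss*, a cysteine protease largely restricted to macrophages and other antigen-presenting cells, lies at chr3:95330708-95360325 and was at 12.7 and 14.4 in *rd7* and 8.64 and 7.76 in wild-type retinas. It rose by a log2 fold change of 0.72 ± 0.09 (SE, adjusted p = 0.00278 from limma), and of the 16 alternatives only the absence of a filter removed the call (adjusted p = 0.0602 from limma).

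*Mpeg1*, which encodes perforin-2, was at 1.74 and 2.00 in *rd7* and 0.951 and 1.02 in wild-type retinas. The groups were clearly apart, with a log2 fold change of 0.86 ± 0.15 (SE, adjusted p = 0.00699 from limma), and the call was lost without wild-type replicate 1 or without a filter (adjusted p = 0.0584 and 0.0566 from limma). Its log2 fold change was 0.57 after correcting for GC content and length and 0.53 with a pseudocount of 1. *Ctsb*, a cysteine protease of lysosomes in many cell types, was at 95.9 and 118 in *rd7* and 79.2 and 80.9 in wild-type retinas. Its log2 fold change of 0.41 ± 0.10 (SE, adjusted p = 0.0198 from limma) was the smallest of the 6 and was not called once libraries were scaled by median ratio (0.25, adjusted p = 0.0971 from limma) or with a correction for GC content and length (0.18, adjusted p = 0.215 from limma). The locus of *Ctsb* overlaps *Fdft1* on the opposite strand, which was at 24.9 to 28.9 in the 4 libraries.

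*Ctsz*, a lysosomal carboxypeptidase, was at 21.1 and 24.3 in *rd7* and 18.7 and 20.1 in wild-type retinas and was not called (log2 fold change 0.22, adjusted p = 0.0752 from limma). Its locus overlaps *Th1l* on the opposite strand, which was at 23.0 to 23.95 in the 4 libraries. *Cd68*, which encodes a lysosomal glycoprotein used to mark phagocytes, was at 1.303 and 1.92 in *rd7* and 1.20 and 1.25 in wild-type retinas. Only *rd7* replicate 2 stood away from the other libraries in *Cd68*, and it was not called (log2 fold change 0.35, adjusted p = 0.214 from limma). *Lyz2*, the lysozyme of myeloid cells, was at 0.971 and 1.06 in *rd7* and 0.608 and 0.573 in wild-type retinas. Here the pools of a genotype were alike, and with the lower limit *Lyz2* was called higher (log2 fold change 0.69, adjusted p = 0.0187 from limma).

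Pattern recognition receptors were below a mean FPKM of 1, and all 3 were higher in each *rd7* pool than in either wild-type pool, beside 52.6% of all genes that average 0.1 FPKM or more, as *Cd14* and *Tlr2* do. *Cd14*, a co-receptor for lipopolysaccharide, was at 0.673 and 0.557 in *rd7* and 0.430 and 0.396 in wild-type retinas. *Tlr2*, a receptor of bacterial lipoproteins, was at 0.133 and 0.180 in *rd7* and 0.0901 and 0.0714 in wild-type retinas. Its wild-type mean was 0.0808, so it reached the limit of 0.1 through its *rd7* values. *Tlr4*, the lipopolysaccharide receptor, was at 0.120 and 0.141 in *rd7* and 0.0454 and 0.0862 in wild-type retinas. Neither *Cd14* nor *Tlr2* was called with the lower limit (adjusted p = 0.0969 and 0.213 from limma), and *Tlr4* was below it.

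Cytokine and chemokine genes were close to the detection limit, and each of the 5 was listed at 0 in at least 1 library. *Ccl3* and *Ccl4*, which encode chemokines that attract monocytes, were highest in *rd7* replicate 2 at 0.264 and 0.222, which corresponds to about 7 and 5 reads. In the other 3 libraries *Ccl3* was at 0.0678 or below and *Ccl4* at 0.0465 or below, or at most 2 reads. *Ccl2*, another monocyte chemokine, was at 0.101 in *rd7* replicate 2 and 0.0641 in wild-type replicate 1, and is listed at 0 in the other libraries. *Il1b*, an inflammatory cytokine, was at 0.0192 in *rd7* replicate 2 and 0.0391 in wild-type replicate 1 and is listed at 0 elsewhere. *Tnf*, another inflammatory cytokine, was at 0.0167 and 0.0169 in *rd7*, about 1 read each, and is listed at 0 in both wild-type libraries. Differences of these genes were not detectable at this depth.

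Of the secreted products of activated macrophages, *Lgals3*, which encodes galectin-3, was at 0.631 and 0.693 in *rd7* and 0.469 and 0.374 in wild-type retinas. Its groups were separate, and it was not called with the lower limit (log2 fold change 0.55, adjusted p = 0.0677 from limma). *Spp1*, which encodes osteopontin and is also expressed by retinal ganglion cells, was at 8.21 and 12.1 in *rd7* and 12.7 and 12.1 in wild-type retinas. *rd7* replicate 1 was the low library, and *Spp1* was not called (log2 fold change -0.31 ± 0.17, adjusted p = 0.192 from limma) except without *rd7* replicate 2 (-0.59, adjusted p = 0.000241 from limma).

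The *rd7* pools differed from each other across these genes, which was known when the genes were chosen and is given as a description. Of the 32 genes with a mean of at least 0.1, *rd7* replicate 2 was above *rd7* replicate 1 in 29, or all but *P2ry12*, *Fcrls* and *Cd14*, whereas 46.9% of all genes had this order. Wild-type replicate 2 was above wild-type replicate 1 in 17 of the 32, against 58.5% of all genes. The median log2 difference between the *rd7* pools was 0.21 in the 32 genes and -0.011 in all genes. Against the wild-type mean, the 32 genes had a median log2 difference of 0.35 in *rd7* replicate 1 and 0.62 in *rd7* replicate 2, compared with 0.15 and 0.14 for all genes. Summed FPKM of the 5 activating receptors and adaptors were 8.03 and 13.1 in *rd7* and 8.09 and 8.62 in wild-type retinas. The sum of *rd7* replicate 1 was lowered by *Fcer1g*, since this library was above both wild-type libraries in the other 4 genes.

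Genes of reactive Müller cells and retinal injury had the same order of pools. Of the 16 listed, 15 were higher in *rd7* replicate 2 than in *rd7* replicate 1, with a median log2 difference of 0.76, and their summed FPKM were 122 and 205 in *rd7* and 91.6 and 93.7 in wild-type retinas. *Gfap*, the intermediate filament of reactive glia, was at 10.3 and 28.1 in *rd7* and 7.59 and 8.14 in wild-type retinas. *Edn2*, which photoreceptors express after damage, was at 0.874 and 9.001 in *rd7* and 1.18 and 1.34 in wild-type retinas. Thus both stood out in the pool in which *Trem2*, *Tyrobp* and *Fcer1g* were also highest. Of 13 genes of this list tested, 6 were called higher and none lower, beside 37.6% and 8.8% of all genes, and *Osmr*, *Socs3* and *A2m* among the 6 reached the filter only through their *rd7* values. The number called higher was 11 without *rd7* replicate 1, 1 without wild-type replicate 1 and 2 without wild-type replicate 2, where 41.0%, 10.2% and 16.8% of all genes were called higher. The part of these cells in the microglial values was not tested.

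**Figure D3:**
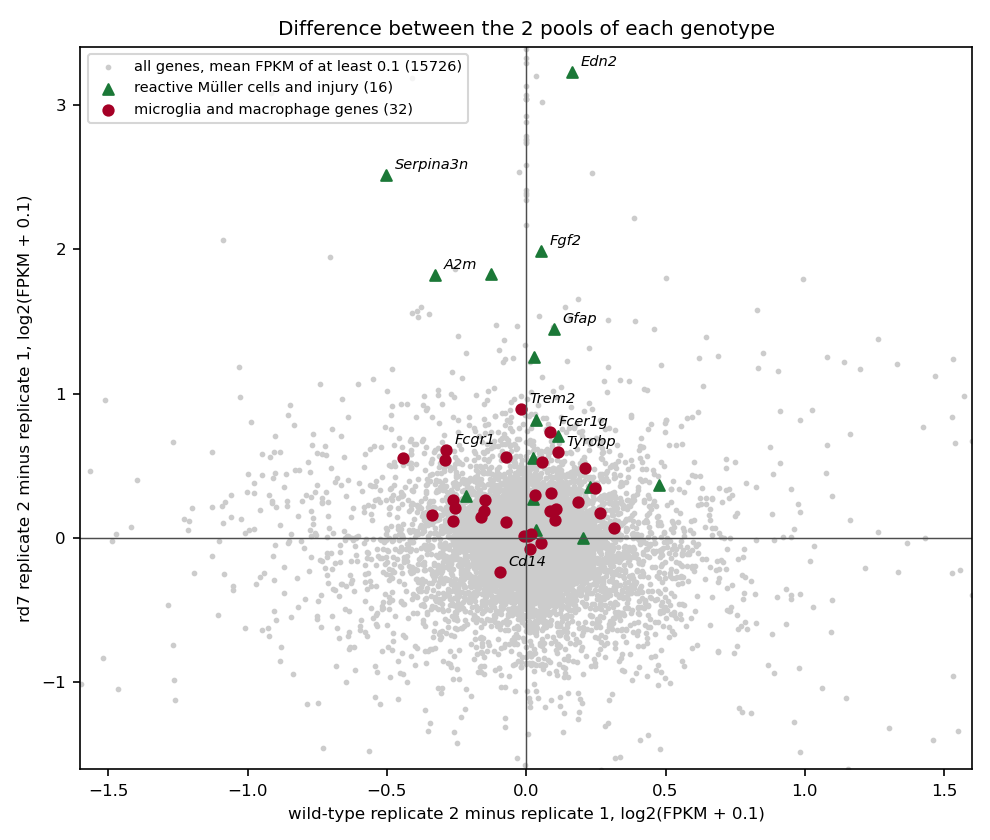
Log2 difference between the *rd7* pools plotted against log2 difference between the wild-type pools, with all 15726 genes that average 0.1 FPKM or more in grey (151 lie outside the axes), the 32 microglia and macrophage genes and the reactive Müller cell and injury genes in colour. In 29 of the 32 genes *rd7* replicate 2 is above *rd7* replicate 1, and in 17 of them wild-type replicate 2 is above wild-type replicate 1.

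Other genes of microglia gave a mixed picture. Of 29 further microglial genes listed, 11 were tested, 3 were called higher and 1 lower, beside 37.6% and 8.8% of all genes. *Ly86*, which encodes the TLR-related protein MD-1, was at 3.61 and 4.68 in *rd7* and 2.24 and 2.18 in wild-type retinas (log2 fold change 0.87, adjusted p = 0.00535 from limma). Both *rd7* values were above both wild-type values. *Plek*, a substrate of protein kinase C in blood cells, was called higher as well (adjusted p = 0.0221 from limma), and its log2 fold change was 0.51. The call of *Plek* was lost with median-ratio scaling (log2 fold change 0.36, adjusted p = 0.0639 from limma). It was also lost after correcting for GC content and length (log2 fold change 0.17, adjusted p = 0.310 from limma). With median-ratio scaling 1 gene of this list was called higher and 2 lower, beside 19.7% and 19.6% of all genes, and without wild-type replicate 1 none was called in either direction (background 10.2% and 1.77%), while without *rd7* replicate 2 there were 2 higher and 3 lower (background 43.3% and 11.6%). *Sfpi1*, the gene of PU.1, was at 0.188 and 0.416 in *rd7* and 0.243 and 0.274 in wild-type retinas, so its groups overlapped.

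Among genes that microglia raise in neurodegeneration, 6 of 10 tested were called higher and none lower, against the same background of 37.6% and 8.8%. They were *Ank*, *Ctsl*, *Timp2*, *Cd9*, *Axl* and *Lpl*, with log2 fold changes of 0.36 to 0.82, and neurons, glia or vessels of the retina express several of them. *Apoe*, *Cd63*, *Gpnmb* and *Cd52* were tested and not called. *Apoe*, the most abundant of the list, was at 616 and 581 in *rd7* and 599 and 630 in wild-type retinas (adjusted p = 0.620 from limma). With median-ratio scaling 3 of the 10 were called higher and 1, *Apoe*, lower (background 19.7% and 19.6%). The number called higher was 9 without *rd7* replicate 1, 1 without wild-type replicate 1, and 2 without wild-type replicate 2 or after correcting for GC content and length (background 41.0%, 10.2%, 16.8% and 12.5%). Of the signals that neurons and glia send to microglia and the receptors of debris uptake, 7 of 12 tested were called higher and 1 lower (background 37.6% and 8.8%). With median-ratio scaling 7 were higher and 3 lower (background 19.7% and 19.6%), and 3 were higher without wild-type replicate 1 or after correcting for GC content and length (background 10.2% and 12.5%). *Tgfb2*, which encodes a TGF-β ligand, was at 16.5 and 15.7 in *rd7* and 10.3 in both wild-type libraries. *Mertk*, a receptor kinase for engulfing photoreceptor debris, was at 2.96 and 2.93 in *rd7* and 1.76 and 1.69 in wild-type retinas. Both rose with nearly equal pools (log2 fold changes 0.64 and 0.74, adjusted p = 0.0012 and 0.00358 from limma), whereas *Sirpa*, the receptor of the signal CD47, fell (log2 fold change -0.39, adjusted p = 0.00475 from limma). Without a filter *Sirpa* was not called (adjusted p = 0.057 from limma), and its call was also lost without wild-type replicate 2. *Cd47* itself was at 20.95 and 27.6 in *rd7* and 15.5 and 14.7 in wild-type retinas. It was called higher (log2 fold change 0.67, adjusted p = 0.00958 from limma). After correcting for GC content and length *Cd47* was not called (log2 fold change 0.32, adjusted p = 0.133 from limma). The call of *Cd47* was lost without a filter as well (adjusted p = 0.130 from limma). The microglial ligand *Cx3cl1*, which encodes fractalkine, was at 22.6 and 25.3 in *rd7* and 24.3 and 25.2 in wild-type retinas and was not called.

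Markers of other cells that carry myeloid or blood genes were read beside these results. Of 10 genes of infiltrating and perivascular macrophages, *Mrc1* was at 0.0259 or below in every library and *Cd209f* is listed at 0 in all. *Ccr2*, the chemokine receptor of inflammatory monocytes, was at 0.0342 and 0.0214 in *rd7* and 0.0131 and 0.00881 in wild-type retinas, or between 2 and 8 reads. *Ms4a7*, a gene of border-associated macrophages, was at 0.556 and 0.292 in *rd7* and 0.117 and 0.186 in wild-type retinas, and was not called with the lower limit (log2 fold change 1.02, adjusted p = 0.0612 from limma). *Ly6c2*, a monocyte surface gene, was at 1.38 and 2.09 in *rd7* and 1.75 and 2.23 in wild-type retinas, with overlapping groups. The part of such cells in the values of the 39 genes was not tested. The summed FPKM of the 10 genes were 7.93 and 8.25 in *rd7* and 6.34 and 6.99 in wild-type retinas, of which *Lyve1* made up most and was called higher, though not when either wild-type replicate was left out or after correcting for GC content and length (adjusted p = 0.144 from limma). None of 7 neutrophil genes exceeded 0.181 and none of 10 lymphocyte genes 0.777, with *Cd3e* and *Klrb1c* listed at 0 in all libraries. Of 5 red blood cell loci tested, 3 were called lower, beside 8.8% of all genes, and *Alas2* among them reached the filter only through its wild-type values. When wild-type replicate 1 or 2 was left out, 1 was called lower, beside 1.77% and 2.67% of all genes. This list had sums of 76.8 and 161 in *rd7* against 271 and 318, and the copies of hemoglobin genes share reads. Sums of endothelial and pericyte genes were 86.2 and 64.1 against 47.0 and 51.9, and those of pigment epithelium genes were 62.0 and 55.9 against 35.7 and 22.8. In these lists 2 of 8 and 3 of 5 tested genes were called higher and none lower, beside 37.6% and 8.8% of all genes, and the count of vessel genes ranged from 1 to 5 when a library was left out (background 10.2% to 43.3%). In neither was *rd7* replicate 2 the higher pool by its sum. Their part in the lysosomal genes, which these cells express as well, and in the values of *Mertk* was not tested.

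**Figure D4:**
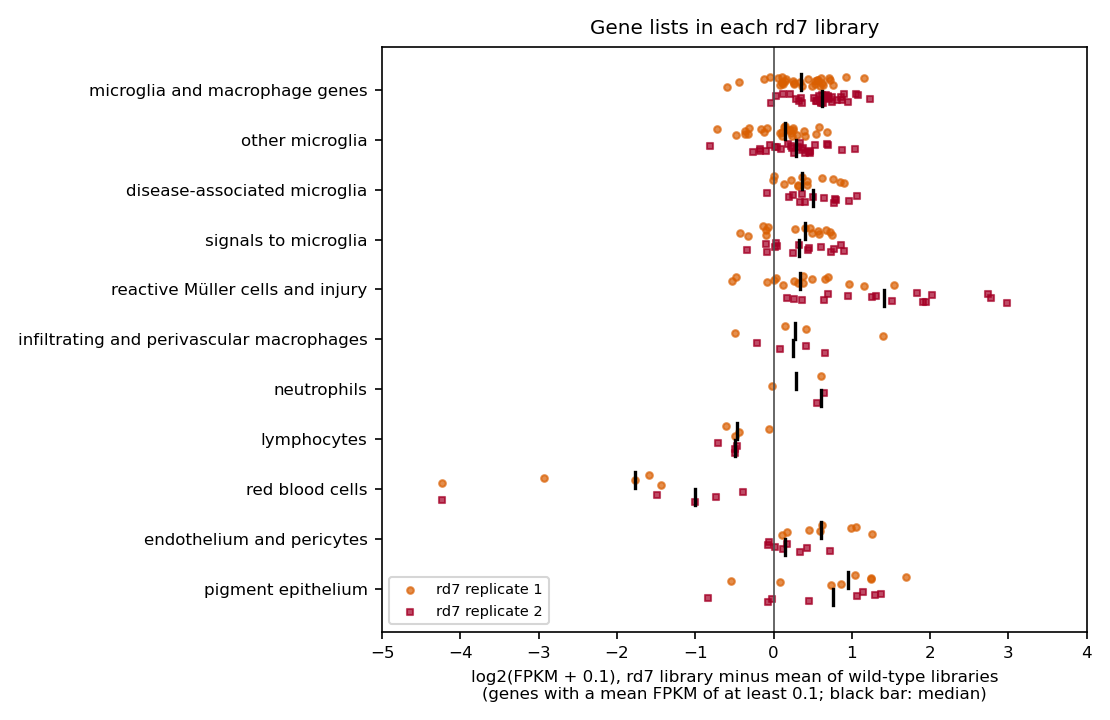
Log2 difference of each *rd7* library from the wild-type mean for the genes of each list that average 0.1 FPKM or more, on the log2(FPKM + 0.1) scale, with 1 point per gene and library and a bar at the median. The medians of the 32 microglia and macrophage genes are 0.35 and 0.62, those of the reactive Müller cell genes 0.34 and 1.41, and red blood cell genes lie below 0.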

How the data were processed

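Retinas of *rd7* and wild-type mice were analysed as 2 against 2 libraries. Per the labels and the methods, the authors aligned single 50-base reads with TopHat 1.4.1 (genome build mm9) and obtained FPKM from Cufflinks 1.3.0. The authors deposited FPKM per gene and library, which hold no read counts, so no count model was used. Their table of Cuffdiff comparisons (pooled FPKM, fold changes, p-values) was not used.

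Of 22095 loci, 262 with an incomplete estimate in any library were left out. Values were taken as log2(FPKM + 0.1), which understates changes of low genes, and limma 3.58.1 (R 4.3.3) was run on genes averaging 1 FPKM or more, with trended eBayes, two-sided p and an FDR of 5% by Benjamini-Hochberg adjustment. An exact permutation test of 2 against 2 libraries cannot go below p = 0.333 and was not used. The fit was first tested on simulated data. Depth (3.49e+07 to 3.55e+07 reads) was read from the smallest FPKM values of single-transcript genes, and read numbers and the floor of 3 reads cover counting error only. Replicates of a genotype correlated with an r2 of 0.974 (*rd7*) and 0.979 (wild-type).

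All 39 genes are named, and of the other lists the defining genes, those called or the highest. Members and lists were chosen with earlier results of these data known, including the difference between the *rd7* pools. *Spi1* and *Pmel* are listed as *Sfpi1* and *Si*, and *Bin2* and *Ly6g* were not matched. Alternatives were other pseudocounts, filters, scalings, a correction for GC content and length, a replicate block, an FDR of 1% and leaving out each library. Those at an average of 0.1 FPKM or more were added after the values were seen. Some genes of the other lists are counted but not reported here by name.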

Additional observations from a re-analysis of the deposited data

How the results depend on the processing

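Of the 6 microglia and macrophage genes called higher, *Ctsd* was called under all 16 alternatives, *Ctss* under 15 and *Ctsb* under 8. *P2ry12*, *Csf1r* and *Mpeg1*, which average under 5 FPKM and so had 15 alternatives, were called under 14, 13 and 13. The number called higher was 3 of 5 tested at an average of 5 FPKM or more and 11 at 0.1 or more, and between 2 and 12 when a library was left out. The number called lower was between 0 and 2 when a library was left out. Without a filter 5 of 39 were called higher, 2 of them among the 6 and another *Tnf*, at about 1 read in each *rd7* library. *Cx3cr1* turned to -0.030 with median-ratio scaling (-0.029 at an average of 0.1 or more), -0.075 with quantile normalization and -0.089 after correcting for GC content and length, and *Fcer1g* ranged from -0.45 to 0.29 when a library was left out.

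Across all genes, 4755 were higher and 1114 lower. These counts became 2582 and 446 at an FDR of 1%, 2249 and 455 without a filter, 2492 and 2479 scaled by median ratio, 2350 and 2404 under quantile normalization, 1516 and 1823 after correcting for GC content and length, and 2426 and 2406 with median-ratio scaling at a mean of at least 0.1. When a library was left out they ranged from 1293 to 5484 and from 224 to 1601. The cause was not tested. Replicate numbers did not pair the libraries (correlation of deviations -0.0265), and with a replicate block 7 of the 14 genes were called higher (the 6 and *Ctsz*, adjusted p = 0.0308 from limma), with 4508 and 1091 of all genes higher and lower. At this depth genes of a few reads, such as the cytokines, could not be compared.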
